A study of Mus musculus with 6 samples.

Results

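The expression of 52 TGF-beta and BMP pathway genes was examined in mouse inguinal adipose tissue (iAT), a subcutaneous white fat depot. The genes were chosen by name from the 19831 genes listed: ligands of the TGF-beta, BMP, GDF and activin families, their receptors, the Smad transducers, and the secreted antagonists noggin, chordin, gremlin, follistatin and follistatin-like 3. The tissue came from postnatal day 6, from 3 wild-type samples and 3 Npffr1-KO samples, in which neuropeptide FF receptor 1 is ablated. The strain, the sex and the design of the knockout allele are not stated for these samples, and nothing says whether each sample came from 1 animal. The values were normalized counts, given by the authors as 1 value per genotype, so that no test between genotypes was possible for most genes and all differences below are descriptions. A log2 ratio below is the Npffr1-KO value over the wild-type value, and levels of different genes are compared only per kilobase of gene length.

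Ligands of this family are secreted dimers. They bring together type II receptors, which are constitutively active kinases, and type I receptors, which then phosphorylate receptor-regulated Smads. Smad2 and Smad3 carry the signals of TGF-betas and activins, and Smad1, Smad5 and Smad9 those of BMPs. Both kinds join Smad4 and enter the nucleus, while Smad6 and Smad7 inhibit the pathway. In fat, TGF-beta restrains the differentiation of preadipocytes, several BMPs favour commitment of precursors to the adipocyte lineage, and activin receptor-like kinase 7, the product of *Acvr1c*, is known for restraining lipolysis in mature adipocytes.

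The tissue carried high levels of adipocyte genes in both genotypes, with 173188 normalized counts of *Fabp4* in Npffr1-KO and 156285 in wild-type. The size factors of the 6 libraries lay between 0.916 and 1.04, and the values of all genes summed to 2.31e+07 in wild-type and 2.36e+07 in Npffr1-KO. *Npffr1* itself was near the limit of detection, with 1, 0 and 5 reads across the wild-type libraries and 0 in each Npffr1-KO library, which allows up to 3 reads per library. Short genes were higher and long genes lower in Npffr1-KO, with a median log2 ratio of 0.27 in the shortest of 20 length classes and -0.15 in the longest, so the ratios it moved by over 1.5 times, past its counting interval or across a size of 0.3 or 0.5 are also given centred on genes of like length. In bulk tissue, fewer cells of a type and less RNA per cell cannot be told apart.

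Most of the genes were lower in Npffr1-KO. Of the 52 genes, 45 averaged 10 or more normalized counts over the genotypes (the minimum mean below), and 31 of them, 68.9%, had a ratio under 1, compared with 48.8% of all 15309 genes at that level. The median log2 ratio of the 45 genes was -0.22, and -0.18 after centring, while that of all genes was 0.01. A log2 ratio of at least 0.3 in size was found downwards for 16 of the 45 genes, 35.6%, compared with 12.9% of all genes, and upwards for 5, 11.1%, compared with 13.7%. After centring, 13 genes, 28.9%, were lower by that size, compared with 12.8% of all genes, and 4 were higher, 8.89%, compared with 9.39%. At a size of at least 0.5 there were 4 lower genes, compared with 4.78% of all genes, and 1 higher gene, compared with 4.37%. The 4 lower genes were *Acvr1c*, *Tgfbr3l*, *Chrd* and *Nog*, and the higher one was *Inhbb*. The deposited values draw the genotypes together in genes with few reads. *Gdf15* and *Gdf5*, at 0.497 and 0.453 there, had log2 ratios of 0.59 and 0.53 from their recovered reads, with overlapping genotypes. The remaining 7 genes, *Bmp15*, *Bmp8a*, *Bmp8b*, *Gdf2*, *Gdf6*, *Gdf7* and *Inhbe*, were under that mean.

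**Figure D1:**
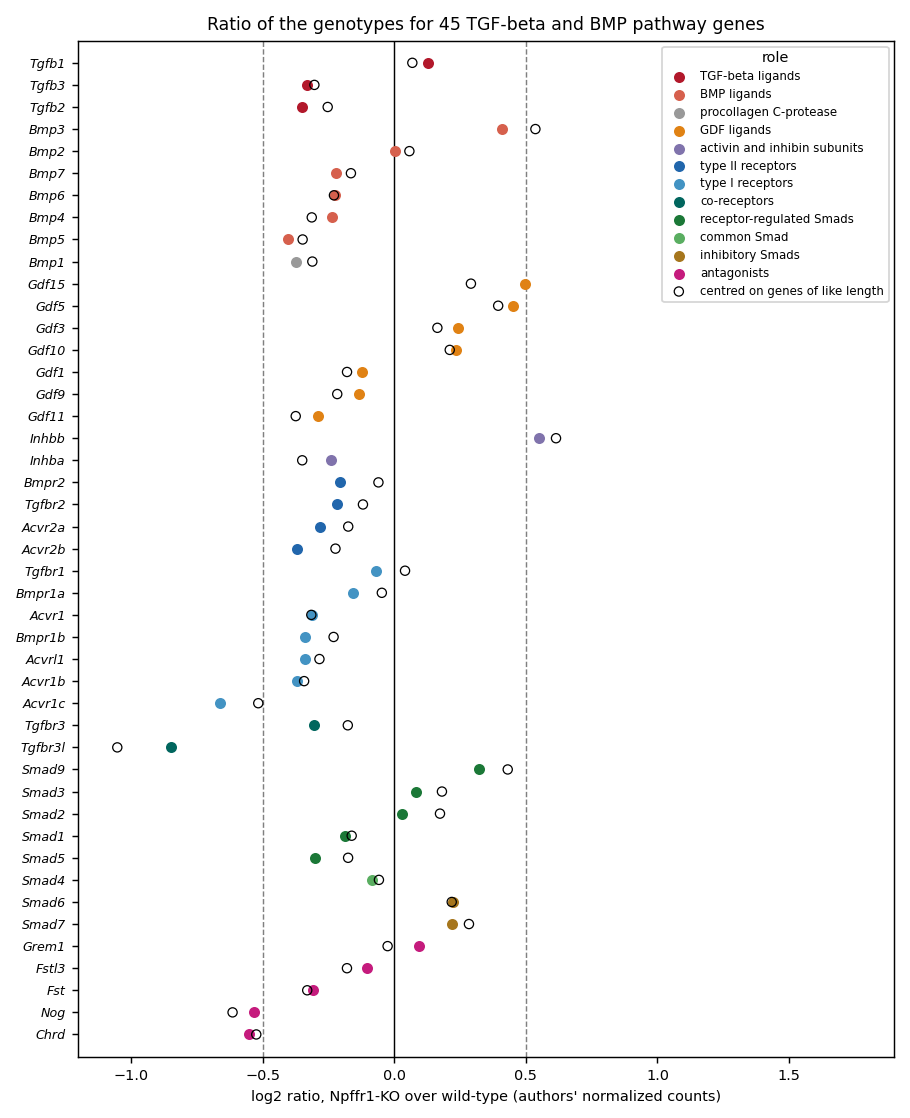
Log2 ratio of Npffr1-KO over wild-type for the 45 genes averaging 10 or more normalized counts, grouped by role; filled points are the authors' values, open points the same ratios centred on genes of like length, and dashed lines mark 0.5 in size. All 13 receptors and co-receptors sit left of 0 before centring, compared with 48.8% of all genes at that mean. *Inhbb* is the one filled point right of the upper dashed line.

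The activin axis held the largest differences in opposite directions. *Inhbb*, which encodes the beta B chain of activin B and inhibin B, stood at 746 normalized counts (wild-type) and 1093 (Npffr1-KO), a log2 ratio of 0.55, or 0.61 after centring. Its ratio rested on about 2286 and 3218 reads, and the 95% interval from counting error alone was 0.47 to 0.63. *Acvr1c*, a type I receptor for activin B, stood at 2214 in wild-type and 1399 in Npffr1-KO, a log2 ratio of -0.66 with a counting interval of -0.72 to -0.61, and -0.52 after centring. These intervals do not hold the spread between animals. Per kilobase, *Inhbb* was at 0.695 of the level of *Acvr1c* in wild-type and at 1.61 times it in Npffr1-KO. *Inha*, the inhibin alpha chain that pairs with beta chains to form inhibins, is not among the 52 genes and was chosen with the other ligands of the pathway. It stood at 252 in wild-type and 121 in Npffr1-KO, a log2 ratio of -1.06, and -1.17 after centring. *Tgfbr3l*, which encodes a co-receptor for inhibin B, stood at 237 and 132, a log2 ratio of -0.85, and -1.05 after centring. In the annotation *Tgfbr3l* shares 52.2% of its exon bases with a gene on the same strand, Gm49320, so its reads and those of that gene may have been split. Within this axis the chain shared by activin B and inhibin B was thus higher, and the alpha chain, the inhibin co-receptor and *Acvr1c* were lower.

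The other activin genes differed less. *Inhba*, the beta A chain, was low, with 26, 38 and 26 reads across the wild-type libraries and 17, 26 and 27 across those of Npffr1-KO, and the genotypes overlapped. Per kilobase *Inhbb* exceeded *Inhba* 9.27-fold in wild-type and 16.04-fold in Npffr1-KO. *Inhbe* had 1 read in 6 libraries. The type II activin receptors *Acvr2a* and *Acvr2b* had log2 ratios of -0.28 and -0.37, which were -0.17 and -0.22 after centring. *Acvr1b*, the other activin type I receptor, had -0.37, and -0.34 after centring.

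The genome upstream is shown for *Inhbb*, *Acvr1c* and *Chrd*, the antagonist with the lowest ratio before centring. Before centring, these had the largest differences among members at the minimum mean without a shared exon on the same strand. After centring, *Nog* at -0.61 and *Bmp3* at 0.54 exceeded *Chrd* and *Acvr1c*, both at -0.52, in size. The sequences are from RefSeq on build GRCm38.p6, they end at the start of the gene, and they were searched on both strands for the CAGAC core bound by Smad3 and Smad4 and for the GC-rich Smad motif GGCGCC, with matches in capitals. *Inhbb* lies on chromosome 1 on the minus strand, from 119415465 to 119422248, and its upstream bases are chr1:119422249-119422498. *Acvr1c* lies on chromosome 2 on the minus strand, from 58267453 to 58357895, with upstream bases chr2:58357896-58358008, fewer than for the others because RefSeq and GENCODE place its start apart and only bases before both starts are shown. *Chrd* lies on chromosome 16 on the plus strand, from 20733127 to 20742384, with upstream bases chr16:20732877-20733126.
Inhbb: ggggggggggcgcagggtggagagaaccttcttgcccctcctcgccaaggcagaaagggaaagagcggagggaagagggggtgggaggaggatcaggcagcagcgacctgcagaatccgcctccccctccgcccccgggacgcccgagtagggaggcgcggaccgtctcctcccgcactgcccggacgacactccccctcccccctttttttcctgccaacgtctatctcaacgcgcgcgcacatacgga
Acvr1c: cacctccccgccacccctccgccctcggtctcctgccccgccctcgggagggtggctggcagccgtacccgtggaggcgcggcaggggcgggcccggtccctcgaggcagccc
Chrd: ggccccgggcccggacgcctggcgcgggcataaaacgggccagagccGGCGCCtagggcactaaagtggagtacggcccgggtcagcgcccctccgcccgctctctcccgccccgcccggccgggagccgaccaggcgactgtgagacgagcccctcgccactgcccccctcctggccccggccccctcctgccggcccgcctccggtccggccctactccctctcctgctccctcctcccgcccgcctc
The upstream bases of *Chrd* held 1 GGCGCC and no CAGAC, and those of *Inhbb* and *Acvr1c* held neither. Of all 27025 promoters of 250 bases in the table, 42.2% held CAGAC and 9.57% held GGCGCC. G and C made up 68.0% of the bases for *Inhbb*, 80.5% for *Acvr1c* and 78.0% for *Chrd*, where the median of all promoters was 52%. A match is no evidence of binding, and its absence says only that these letters are not in this window.

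Among the TGF-beta ligands, *Tgfb1* dominated. Its wild-type level was 1737 normalized counts per kilobase, 6.96 times that of *Tgfb3* and 23.5 times that of *Tgfb2*. *Tgfb1* stood at 3807 normalized counts (wild-type) and 4156 (Npffr1-KO), a log2 ratio of 0.13, and 0.07 after centring. *Tgfb3* stood at 849 and 675, a log2 ratio of -0.33, and *Tgfb2* at 378 and 296, a log2 ratio of -0.35, and -0.25 after centring. The lesser isoforms were thus lower in Npffr1-KO while the main isoform was not. The normalized counts of the 3 ligands, summed without dividing by gene length, differed by 0.03 on the log2 scale.

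The BMP ligands were led by *Bmp3*, *Bmp6* and *Bmp4*, at 246, 236 and 105 normalized counts per kilobase in wild-type. *Bmp3*, an atypical BMP that opposes signalling by other BMPs and activins, stood at 1534 normalized counts (wild-type) and 2038 (Npffr1-KO), a log2 ratio of 0.41, and 0.54 after centring. *Bmp6* and *Bmp4*, the second of which commits precursors to the white adipocyte lineage, had log2 ratios of -0.22 and -0.24, which were -0.23 and -0.31 after centring. *Bmp7*, known for promoting brown adipocyte differentiation, stood at 224 and 192, a log2 ratio of -0.22. *Bmp5* stood at 119 and 90.3, a log2 ratio of -0.40, and shares 46.7% of its exon bases with an antisense gene. *Bmp2* was nearly equal, at 236.5 in wild-type and 236.9 in Npffr1-KO. Of the 6 BMP ligands at the minimum mean, 4 had a ratio under 1, compared with 48.8% of all genes. The 2 others were *Bmp3* and the nearly equal *Bmp2*. *Bmp1*, which despite its name is a protease that cleaves procollagens and chordin, stood at 5445 and 4200, a log2 ratio of -0.37, and -0.31 after centring.

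*Gdf10*, which encodes a BMP3-related ligand, led the GDF ligands with 247 normalized counts per kilobase in wild-type, a level close to that of *Bmp3*. It stood at 647 normalized counts (wild-type) and 761 (Npffr1-KO), a log2 ratio of 0.23. The next in order were *Gdf11* and *Gdf15*, at 43.4 and 26.3 per kilobase, and the other GDF ligands reached at most 20.8 per kilobase.

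**Figure D2:**
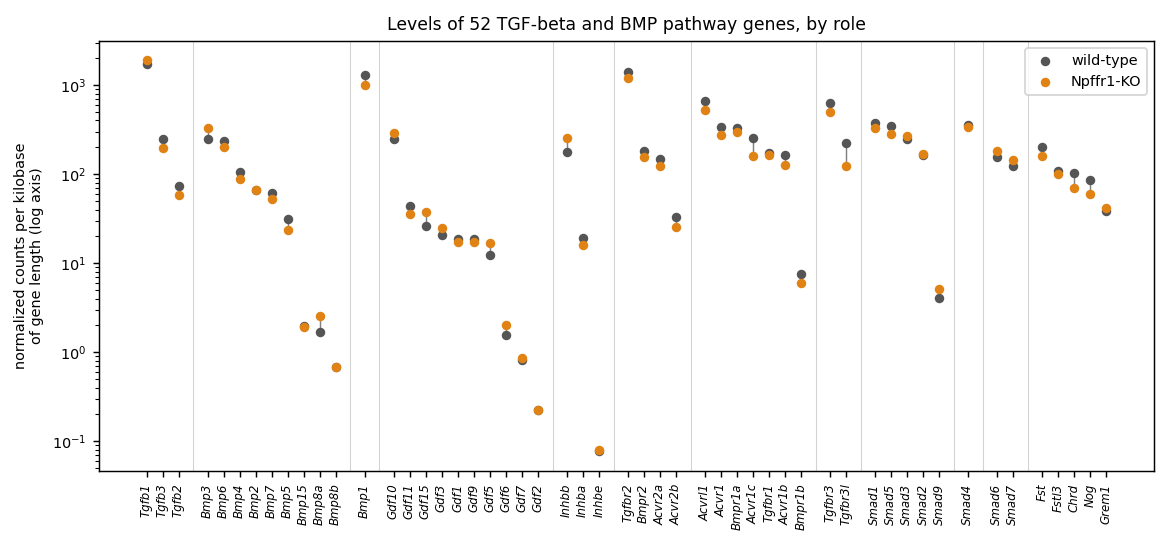
Level of each of the 52 genes in normalized counts per kilobase of gene length on a log axis, for wild-type and Npffr1-KO, ordered within each role by the wild-type level. *Tgfb1*, *Tgfbr2* and *Bmp1* stand highest, at 1737, 1391 and 1296 per kilobase in wild-type, and *Gdf2*, *Gdf7*, *Bmp8b* and *Inhbe* under 1.

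For 17 low genes the reads in each library were recovered from the normalized values, which gives the spread between samples. With 3 libraries against 3, the smallest p of a two-sided exact permutation test is 0.1. Among the 15 of these genes with a mean of at least 1, the Npffr1-KO libraries all lay above the wild-type libraries for 2, 13.3%, compared with 5.38% of all genes of that kind, and below them for 0, compared with 8.71%. *Bmp8a*, which is close in sequence to *Bmp8b*, had 5, 2 and 2 reads in wild-type and 9, 7 and 5 in Npffr1-KO. Divided by the size factors these were 2.92 ± 1.65 and 7.06 ± 1.61 reads (SD, n = 3 each), and the genotypes did not overlap. *Gdf6*, which acts in skeletal patterning, had 6, 4 and 5 reads in wild-type and 11, 6 and 6 in Npffr1-KO, or 4.89 ± 0.941 and 7.73 ± 2.49 normalized reads (SD, n = 3 each), with the genotypes just apart. Both genes had few reads, and *Bmp8a* shares 11.2% of its 31-base stretches with other genes, so that reads may have been assigned to another gene.

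The other low GDF genes overlapped between the genotypes. *Gdf15*, a stress-induced ligand, had 28, 30 and 26 reads in wild-type and 28, 55 and 38 in Npffr1-KO. Its mean was 27.4 ± 1.81 normalized reads in wild-type and 41.3 ± 14.3 in Npffr1-KO (SD, n = 3 each), so that 2 Npffr1-KO libraries lay above the wild-type libraries and 1 among them. *Gdf5*, a ligand of joint formation, had 35, 27 and 22 reads in wild-type and 35, 43 and 38 in Npffr1-KO, and 40.3% of its exon bases lie opposite another gene. Here too 1 Npffr1-KO library lay within the wild-type range. *Gdf3*, a ligand expressed in fat that can signal through *Acvr1c*, had 52, 36 and 45 reads in wild-type and 56, 62 and 37 in Npffr1-KO. *Gdf11* had 61, 96 and 86 reads in wild-type and 70, 67 and 51 in Npffr1-KO. *Gdf9*, best known from the oocyte, ranged from 18 to 51 reads within wild-type and from 26 to 34 in Npffr1-KO. *Gdf1* had 38 to 49 reads in wild-type and 31 to 45 in Npffr1-KO, and its exons lie wholly within those of *Cers1* on the same strand, so the reads cannot be given to either gene. The lowest ligands were at the limit of detection, with *Bmp15* at 2 to 13 reads per library, *Bmp8b* at 0 to 4, and *Gdf7* and *Gdf2* at 0 to 2.

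**Figure D3:**
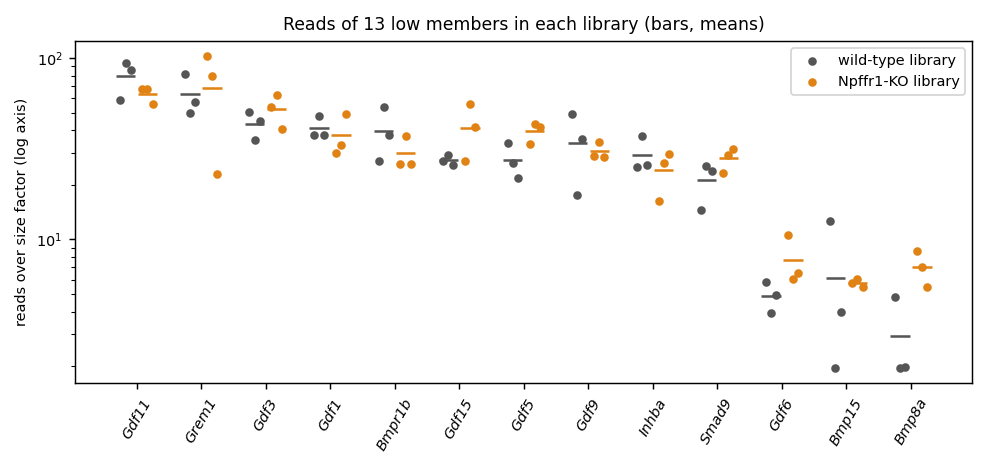
Reads of 13 low members in each library divided by its size factor, on a log axis, with 3 points per genotype and a bar at their mean. The genotypes stand apart for *Gdf6* and *Bmp8a* and overlap for the other 11, and *Grem1* has 1 Npffr1-KO library, at 22.9, far under the other points.

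All 13 receptors and co-receptors had a ratio under 1, compared with 48.8% of all genes at the minimum mean. Their median log2 ratio was -0.31. Most receptor genes are long, with a median length of 5481 bases compared with 2785 for all genes. After centring on genes of like length, which sets the median of all genes to 0, their median was -0.22 and 12 of 13 remained under 0. *Tgfbr2*, the TGF-beta type II receptor, was the most abundant at 1391 normalized counts per kilobase in wild-type, 8.11 times the level of its partner *Tgfbr1*. *Tgfbr2* stood at 6593 normalized counts (wild-type) and 5676 (Npffr1-KO), a log2 ratio of -0.22, and -0.12 after centring. *Tgfbr1* stood at 972 and 927, a log2 ratio of -0.07 that turned to 0.04 after centring. *Tgfbr3*, or betaglycan, which presents TGF-beta2 and inhibins to the receptors, stood at 3772 and 3057, a log2 ratio of -0.30, and -0.18 after centring.

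The BMP receptors also had ratios under 1, of which *Bmpr1a* and *Bmpr2* lay within 0.1 of 0 after centring. *Acvrl1*, the endothelial type I receptor for BMP9 and BMP10, led the type I receptors at 661 normalized counts per kilobase in wild-type, and stood at 2372 normalized counts (wild-type) and 1875 (Npffr1-KO), a log2 ratio of -0.34, and -0.28 after centring. *Acvr1* stood at 959 and 774, a log2 ratio of -0.31, and *Bmpr1a*, the main receptor for BMP2 and BMP4, at 1799 and 1615, a log2 ratio of -0.16, and -0.05 after centring. *Bmpr2* stood at 2007 and 1741, a log2 ratio of -0.21, and -0.06 after centring. *Bmpr1b* was 43.9 times lower per kilobase than *Bmpr1a* in wild-type, with 28, 55 and 38 reads in wild-type and 27, 37 and 24 in Npffr1-KO. The genotypes overlapped for it.

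**Figure D4:**
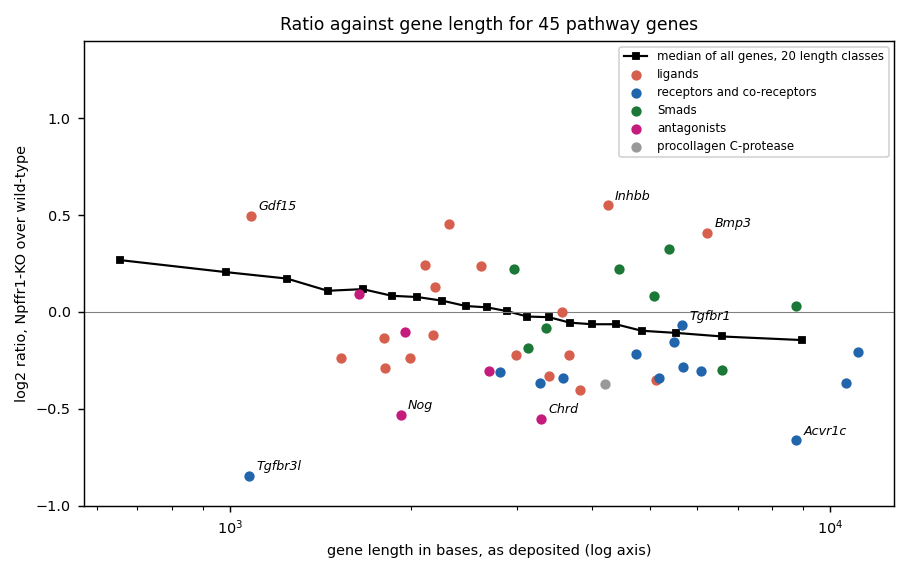
Log2 ratio of Npffr1-KO over wild-type against the deposited gene length on a log axis for the 45 genes, coloured by family, with the median of all genes in 20 length classes as a black line. All receptors but *Tgfbr1* lie under the line. *Tgfbr3l* and *Nog* lie far under the level of other short genes, and *Inhbb* and *Bmp3* far above that of other long genes.

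The Smad genes did not share a direction. *Smad1*, *Smad4* and *Smad5* were the highest per kilobase in wild-type, at 377, 356 and 344 normalized counts. *Smad1* and *Smad5*, which carry BMP signals, had log2 ratios of -0.19 and -0.30, which were -0.16 and -0.18 after centring, and *Smad4* had one of -0.09. *Smad2* and *Smad3*, which carry TGF-beta and activin signals, had ratios of 0.03 and 0.08, which were 0.17 and 0.18 after centring. *Smad9* was 92.6 times lower per kilobase than *Smad1* in wild-type. Its libraries held 15, 26 and 24 reads in wild-type and 24, 29 and 29 in Npffr1-KO, or 21.3 ± 5.92 and 28.0 ± 4.39 normalized reads (SD, n = 3 each), and they overlapped. The inhibitory *Smad6* and *Smad7* were both higher in Npffr1-KO, at 459 and 536 normalized counts for *Smad6* and 542 and 631 for *Smad7*, each a log2 ratio of 0.22. Neither reached a size of 0.3.

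The antagonists were mostly lower. *Chrd*, or chordin, which binds BMPs outside the cell, stood at 340 normalized counts (wild-type) and 232 (Npffr1-KO), a log2 ratio of -0.55 with a counting interval of -0.69 to -0.41. *Nog*, or noggin, another BMP trap, stood at 166 and 115, a log2 ratio of -0.53, and -0.61 after centring. *Fst*, or follistatin, which neutralises activins, led the group at 199.9 per kilobase in wild-type and stood at 539 and 435 normalized counts, a log2 ratio of -0.31. *Fstl3* stood at 213 and 198, and 47.3% of its exon bases lie opposite another gene. *Grem1*, or gremlin, had 85, 51 and 58 reads in wild-type and 106, 79 and 21 in Npffr1-KO, so that the lowest and the highest library were both Npffr1-KO. Its log2 ratio of 0.09 turned to -0.03 after centring.

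Genes that act around these members outside the cell were mostly lower too. Of 13 genes of TGF-beta latency and activation, 11 were at the minimum mean and 8 of these had a ratio under 1, compared with 48.8% of all genes. Of the 11, 5 were lower by at least 0.3, compared with 12.9% of all genes, and 0 higher, compared with 13.7%. The list had a median log2 ratio of -0.28, and -0.19 after centring. Among them *Itgb8*, an integrin chain that activates latent TGF-beta, had a log2 ratio of -0.60 at 9, 23 and 21 reads in wild-type and 13, 7 and 8 in Npffr1-KO, which overlapped. *Tll1*, a protease related to *Bmp1*, had -0.50, and -0.41 after centring. *Lrrc32*, which anchors latent TGF-beta on cells, had -0.49, and *Ltbp1*, a latent TGF-beta binding protein, had -0.45, which were -0.44 and -0.32 after centring. Of 13 further extracellular antagonists 10 were at that mean and 9 of these had a ratio under 1, with 4 lower and 1 higher at that size, against the same shares of all genes. *Dand5* was the higher one, at 0.59, and 0.42 after centring, and among the lower ones *Chrdl1* and *Sostdc1*, both BMP antagonists, had ratios of -0.48 and -0.42, which were -0.42 and -0.53 after centring.

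Genes induced by the pathway were not lower as a group. Of 16 listed target genes 14 were at the minimum mean, with a median log2 ratio of 0.01, and -0.06 after centring. At a size of 0.3, 3 were higher and 0 lower, compared with 13.7% and 12.9% of all genes. *Junb*, an immediate early gene that many stimuli besides TGF-beta induce, stood at 2957 normalized counts (wild-type) and 5742 (Npffr1-KO), a log2 ratio of 0.96, and 0.87 after centring. *Id3*, a BMP target, had a ratio of 0.35, which was 0.15 after centring. Of 14 intracellular regulators, *Pmepa1*, a TGF-beta-induced inhibitor of Smad signalling, was the one past 0.3, at 4860 in wild-type and 7102 in Npffr1-KO, a log2 ratio of 0.55, and 0.61 after centring. Of 8 further receptors and co-receptors 7 were at that mean, with a median of 0.04, and 0.14 after centring. Among them *Hfe2* and *Amhr2* were higher by 0.74 and 0.69. *Amhr2*, the type II receptor for anti-Müllerian hormone, had 9, 5 and 8 reads in wild-type and 15, 16 and 12 in Npffr1-KO, which did not overlap, while *Hfe2*, a BMP co-receptor also expressed in skeletal muscle, had 5, 10 and 10 and 32, 16 and 7, which did.

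Markers of the cell types in the tissue moved with the genotypes as well. The summed level of 5 endothelial markers was 52984 in wild-type and 42193 in Npffr1-KO, a log2 ratio of -0.33, and 4 of the 5 were lower. Single endothelial markers ran from -0.43 for *Tek* to 0.02 for *Emcn*. The 8 markers of adipocyte progenitors and fibroblasts summed to a ratio of -0.33, with 7 of 8 lower, but *Col1a1* and *Col1a2* made up 95.1% of the wild-type sum. Without these collagens the ratio of the sums was -0.14, and the median of the 8 ratios was -0.16. The 5 mural markers summed to -0.21, with 5 of 5 lower, of which *Cspg4* at -0.02 turned to 0.13 after centring. The 4 Schwann cell markers had a median ratio of -0.57, with 3 of 4 lower. The 7 adipocyte markers summed to 0.05, with 4 of 7 higher. Their median ratio of 0.03 turned to -0.12 after centring, and *Lep* was the highest at 1.05. The 6 thermogenic adipocyte markers summed to 1365 in wild-type and 4555 in Npffr1-KO, a ratio of 1.74, and 5 of the 5 at the minimum mean were higher. T cell markers summed to 0.69, with 5 of 5 higher, macrophage markers to 0.23, with 3 of 5 higher, B cell markers to 0.25, with 4 of 4 higher, and skeletal muscle markers to 0.92 from a low level of 397 in wild-type. The 4 erythroid markers summed to 0.18 and the 5 epithelial ones to 0.13. The sums of markers were not divided by gene length and not centred. After centring, the median ratio of erythroid markers turned from 0.15 to -0.08. That of the 2 epithelial markers at the minimum mean went from 0.13 to 0.04. The medians went from 0.29 to 0.16 for macrophage markers, 0.26 to 0.13 for B cell markers and -0.19 to -0.13 for mural markers. None of the defining markers was listed at 0 in either genotype. *Myh4*, a skeletal muscle marker, was listed at 0.157 in wild-type and 0.164 in Npffr1-KO. *Npffr1*, with 0 reads in each Npffr1-KO library, was still listed at 0.85 there. The listed values thus cannot show that each marker was detected in both genotypes. The part of these markers in the lower values of the receptors, ligands and antagonists, and in the higher values of *Inhbb* and *Bmp3*, was not tested.

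**Figure D5:**
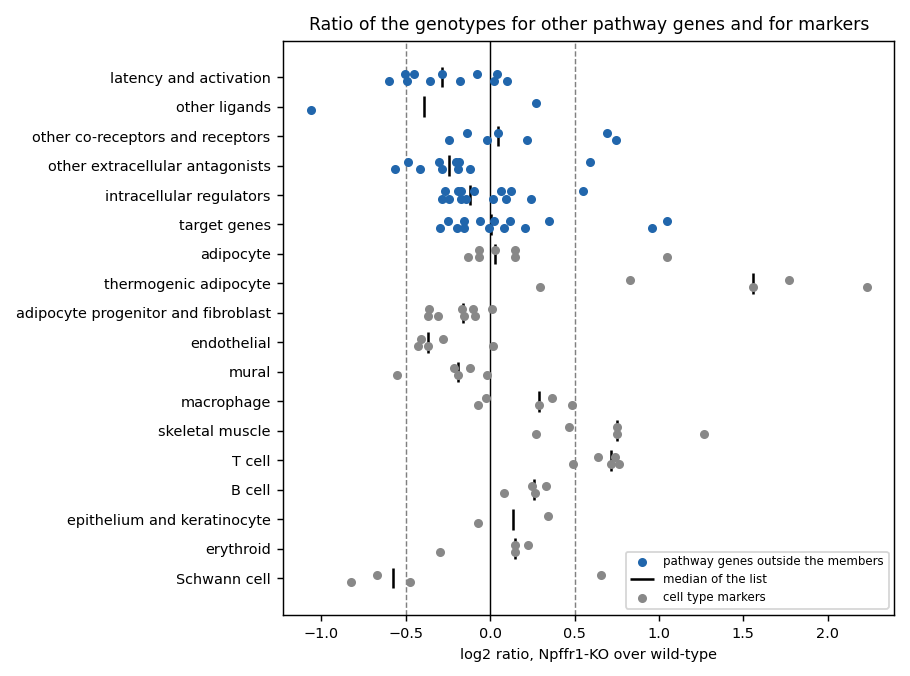
Log2 ratio of Npffr1-KO over wild-type for pathway genes outside the 52 members and for cell type markers, each point 1 gene averaging 10 or more normalized counts, with the median of each list as a black tick and dashed lines at 0.5 in size. Latency genes and extracellular antagonists lie mostly left of 0, as do the endothelial, mural, fibroblast and most Schwann cell markers, while thermogenic adipocyte, T cell and muscle markers lie to the right.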

How the data were processed

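RNA was extracted with TRIzol from iAT of 3 wild-type and 3 Npffr1-KO samples at postnatal day 6 and sequenced. Sample labels gave the groups. The submitters' processing notes name Bowtie2, RSEM and DESeq2, with versions, genome build and annotation not given in the sources used here. The deposited table holds, per gene, a signal made by the authors from read counts divided by library size factors, with 1 value per genotype and the gene length in bases. Their fold changes and p-values compare the genotypes and were not used, and neither was a second table of genes selected by them.

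The deposited genotype values are drawn toward each other in genes with few reads. In genes with a mean of 10 to 75 normalized counts, the median share of the log2 ratio of the reads that was left in the deposited values was 0.80. From genes with a single read, the 6 size factors and the genotype of each library were found, but not its sample number. All whole-read combinations matching the mean of the deposited values within 2e-13 were then searched. Exactly 1 combination matched for 5650 of 5650 genes with a mean up to 25, for 1200 of 1200 up to 60, and for 316 of 322 up to 75. Reads of higher genes were not recovered.

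No test between genotypes was run. For most genes 1 value per genotype leaves no replicate error, and for genes with recovered reads, 3 libraries against 3 allow no exact permutation p under 0.1. Genes averaging 10 or more normalized counts over the genotypes were counted as higher or lower at log2 ratios of 0.5 and of 0.3 in size. Intervals are exact binomial ones at 95% from the approximate reads and cover counting error only. Ratios were also centred on the median of 20 classes of gene length, tested on simulated data. Genes named are members past 0.3, the 3 highest of each role per kilobase, members with recovered reads, and at most 4 genes of each further list, such as *Inha*. *Bmp2*, *Bmp7*, *Tgfbr1* and *Smad2* were named outside this rule after their values were seen, as were the genes of the closing section. The members and lists were chosen with earlier results of these data known. Gene places and shared sequence came from GENCODE M21, in which all 52 members were matched by Entrez ID, and upstream sequence from a RefSeq table holding 36 of the 52. Analyses used Python 3, numpy, pandas, scipy and matplotlib. Some genes of the further lists are not reported here by name. Alternatives were other minimum means, thresholds, pseudocounts, centrings and search limits.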

Additional observations from a re-analysis of the deposited data

How the results depend on the processing

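The count of higher members, 1 as reported, was 2 with no minimum mean, with a minimum mean of 1 and after centring on genes of like length, 5 at a log2 ratio of at least 0.3 and 0 at 1.0. The count of lower members, 4 as reported, was 16 at 0.3, 0 at 1.0 and 3 with a pseudocount of 10. The median log2 ratio of the members, -0.22 as reported, was -0.14 with no minimum mean, and that of the receptors, -0.31, was -0.22 after centring on genes of like length. Reads were recovered for 8 members up to a mean of 25, for 15 up to 60 and for 17 up to 75, the last limit being chosen after seeing the data. None of the 21 members past 0.3 changed direction under another pseudocount or centring. Leaving out each library in turn kept the direction of the read ratio for 9 of 13 low members. *Grem1*, *Gdf1*, *Gdf9* and *Bmp15* changed direction on leaving out at least 1 library. The ratio of *Grem1*, 0.11, turned to -0.03 without the wild-type library of 51 reads. It also turned to -0.30 without the Npffr1-KO library of 106 reads and to -0.02 without that of 79. The log2 ratio of the reads of *Gdf15*, 0.59, ranged from 0.32 to 0.82, that of *Bmp8a*, 1.27, from 1.05 to 1.84, and that of *Gdf6*, 0.66, from 0.37 to 0.81. No paired analysis was possible because the table holds 1 value per genotype and the recovered libraries carry no sample number. For genes above a mean of 75 the spread between samples is unknown.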

Other observations

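Reads were recovered for 13 low pathway genes outside the members with a mean of at least 1. The Npffr1-KO libraries all lay above the wild-type libraries for 3 of them, compared with 5.38% of all such genes, and below for 1, compared with 8.71%. These 4 genes were named after their values were seen. *Lefty2*, an antagonist of Nodal, had 4, 2 and 2 reads in wild-type and 11, 6 and 8 in Npffr1-KO. *Msx2*, a BMP target, had 5, 4 and 6 in wild-type and 19, 6 and 11 in Npffr1-KO. Its nearest libraries tied at 6 reads and stood apart only after division by the size factors, at 5.95 in wild-type and 6.06 in Npffr1-KO. *Amhr2* was likewise higher in each Npffr1-KO library. *Tll2*, a protease related to *Bmp1*, had 4, 5 and 8 reads in wild-type and 2, 2 and 1 in Npffr1-KO. The smallest exact permutation p for 3 against 3 libraries is 0.1.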
